A study of Mus musculus with 48 samples.

Results

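The baseline of the mouse knee joint was described from 12 samples of healthy, untreated joints, taken from a series of 48. They were chosen as all samples whose titles name them healthy and untreated. The samples come from male C57BL/6 mice, labelled 3 months old, with no transgene, injected agent or mechanical loading named in the labels. Per the labels' protocols, synovium was pooled in each sample with the same mass of cartilage and underlying bone. RNA was counted with version 2 of the mouse inflammation panel for the nCounter of NanoString, which counts barcoded probes bound to single RNA molecules without amplification. The rest of the series consists of loaded joints and was not used here. The labels do not say whether the 12 samples come from 12 animals, so the spread and the p-values describe these samples and may in part be technical.

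A healthy knee holds several sources of inflammation genes. The synovial lining is kept by resident macrophages and fibroblasts, the bone beneath the cartilage encloses marrow rich in granulocytes and their precursors, and fat and muscle lie against the capsule. Interferons act through Stat2 and other transcription factors to switch on a set of antiviral genes, and complement is a cascade of plasma and tissue proteins that tags cells and debris for uptake. The panel held no probe among those analysed for Col2a1, Acan, Sox9, Bglap, Prg4 or Col1a1, so cartilage, bone and synovium could not be checked against their defining genes. In whole tissue, a lower count of a gene can reflect fewer cells of a type or less RNA per cell, and these cannot be told apart.

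The panel counted 248 endogenous genes and 6 housekeeping genes. Summed over these genes, a sample held between 36415 counts (replicate 4) and 217805 (replicate 10), with a median of 113746, and the geometric mean of the housekeeping genes spanned 4.78-fold. Every count below is normalized, that is, divided by that geometric mean and set back to its average over the 12 samples. A gene was above background in a sample when its raw count exceeded the mean plus 2 SD of the lane's 8 negative controls. This limit was 9.67 to 22.9 raw counts, and on the normalized scale it ran from 8.31 in replicate 5 to 42.8 in replicate 4. Between 156 and 206 genes lay above it in a sample. Replicates 2 and 5 stood apart: their median correlation with the other samples was 0.894 and 0.868, against 0.918 to 0.964 in the other 10 samples. The housekeeping gene Gapdh was also highest in them, at 15246 in replicate 2 and 9401 in replicate 5 while the other 10 samples ran from 3660.1 to 7367, and Tubb5 was lowest in them. Many results on covariation are therefore given both with and without replicates 2 and 5.

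Myeloid and cytoskeletal genes had the highest counts in healthy joints. Tyrobp, the adaptor through which activating receptors of myeloid cells signal, averaged 8829.7 ± 1987 normalized counts (SD, n = 12 here and throughout). Its samples stood at 4599.8 at the lowest, 8889.7 at the median and 11298 at the highest, with replicate 2 the lowest. Chi3l3 (current symbol Chil3), a chitinase-like protein secreted by myeloid cells, averaged 8039 ± 2766 and ran from 4609.7 to 13428. Cfl1, which severs actin filaments, and the small GTPase Cdc42 followed at 7262 ± 1181 and 6266 ± 739. Mmp9, a gelatinase stored in neutrophils and made by osteoclasts, averaged 3894 ± 1122, from 1709 in replicate 2 to 5196 in replicate 8. The order is one of counts. The sequences of the probes were not used here, so how well each probe captures its RNA is unknown, and a small gap between neighbours in the order has no meaning.

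The next 10 genes were a mixture of G-protein, adhesion, complement and interferon genes. Gnas, the stimulatory G-protein subunit, averaged 3219 ± 460, and Itgb2, the beta chain of the leukocyte integrins, 2904 ± 638. C3, the central complement protein, averaged 2788 ± 985. Rhoa averaged 2649 ± 479 and Rac1 2097 ± 146. Cfd, the adipocyte protease that starts the alternative complement pathway, averaged 2626 ± 1489, and the interferon-inducible Ifi27l2a 2572 ± 1639.7. C1qb, a chain of the C1q complex made by macrophages, averaged 2272 ± 905, Gnb1 1678 ± 256 and the monocyte chemokine receptor Ccr2 1673 ± 506. Within this order the means of Rhoa, C1qb and Rac1 lay within 1 SD of those of Cfd and Ifi27l2a, while Rac1 kept to 1777 to 2292. The 5 highest genes made up 32.1% of the summed mean level of all 248 and the 15 highest 55.1%. Only 21 genes averaged over 1000 counts, and 130 averaged over 100.

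**Figure D1:**
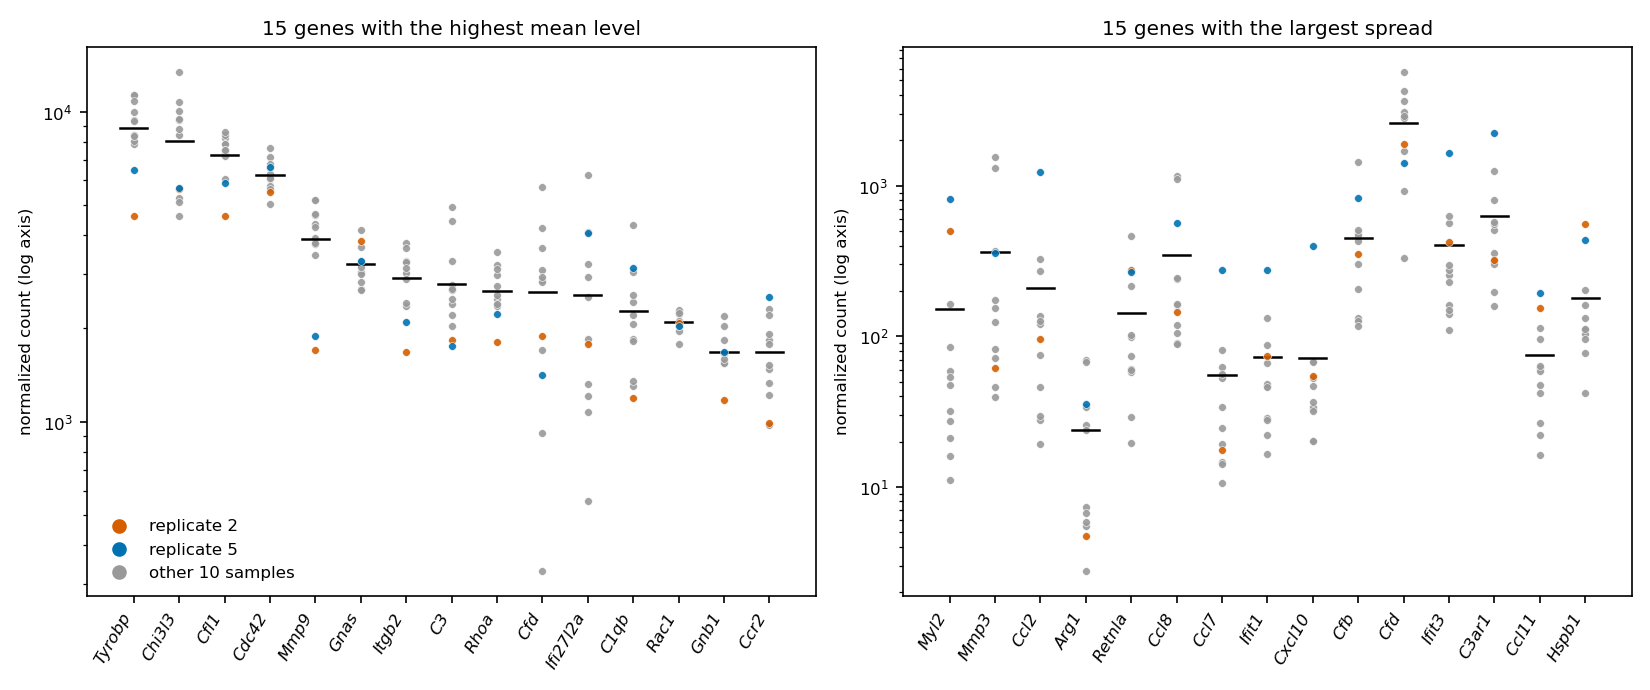
Normalized counts (log axis) of the 15 genes with the highest mean level (left) and the 15 with the largest spread (right); each point is 1 of the 12 healthy samples, with replicate 2 in orange and replicate 5 in blue, and each bar is the mean. Tyrobp reached 11298 and its lowest sample was replicate 2, whereas Myl2 ran from 11.04 to 811 with replicates 5 and 2 on top.

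In contrast, cytokines and enzymes of acute inflammation had low counts or lay at background. Il1b averaged 173 ± 38.3 and was above background in all 12 samples, from 77.9 to 214. Tnf was also above background in all 12, at 58.8 ± 20.6. Il6 averaged 12.9 and was above background in 5 of 12 samples, Nos2, the inducible nitric oxide synthase, 13.8 in 5 of 12, and Ptgs2, the inducible cyclooxygenase, 8.77 in 2 of 12. In the list of cytokines and receptors around interleukin-1, TNF and interleukin-6, the receptor chain Il6ra (238) and the lymphotoxin gene Ltb (233) had the highest means. The receptor antagonist Il1rn averaged 27.6 and was above background in 9 samples, and Il1a 28.6 in 8. Constitutive Ptgs1, unlike Ptgs2, was counted in every sample, from 144 to 299.

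Detection split the panel into 155 genes above background in all 12 samples, 63 above it in 1 to 11 samples and 30 above it in none. The 30 undetected genes included the T-cell cytokines Il2, Il4, Il5, Il13, Il17a and Il22, the growth factors Csf2 and Csf3, the chemokine Ccl20, Il10, Il23a and the receptor Tlr3, whose counts give an upper bound and no level. The liver-made plasma proteins served as a check on liver RNA only. Of 9 such genes, none was above background in all 12 samples and 5 (Crp, Mbl2, C8a, C8b and Hc) were above it in no sample, with the 9 genes together at 56.2 to 154 counts. Of the 248 genes, 185 averaged at least 20 counts and entered the measures of spread and covariation.

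Cell type markers were unequal in level and in spread. The 14 macrophage and monocyte markers summed to 15999.6 counts in replicate 2 and 36298 in replicate 6, and 12 of the 14 were above background in every sample. Tyrobp, the gene with the highest mean of the panel, is on this list, so the sum does not weigh the 14 markers equally. Among them the mannose receptor Mrc1 averaged 609 ± 133 and the scavenger receptor Cd163 174 ± 54.9, while the alternative-activation genes Retnla and Arg1 had the widest spread of the list, with an SD of 1.36 and 1.49 on the log2 scale. The 8 granulocyte and marrow markers summed to 5179 in replicate 2 and 12000.2 in replicate 7. Cxcr4, which holds cells in the marrow, averaged 1528 ± 298 and the neutrophil receptor Cxcr2 539 ± 141. In the lymphocyte and antigen presentation list, the class II gene H2-Eb1 averaged 1298 ± 362 and Cd4 220.2 ± 50.1. The related class II probe listed as H2-Ea-ps was above background in 1 sample, at a mean of 11.5. The 7 muscle markers summed to 801 in replicate 9, 1413 at the median and 4515 in replicate 2.

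Complement genes ranged from the top of the panel to background. C1qb, C1qa and C4a averaged 2272 ± 905, 1247 ± 467 and 902 ± 496. The proteases C1s (current symbol C1s1) and C1ra, which the C1q complex carries, averaged 507 ± 257 and 56.5 ± 25.3. Of the alternative pathway, C3 and Cfd were high and Cfb, the protease subunit of its convertase, averaged 450.0 ± 375. The terminal components C8a, C8b and Hc, the mouse C5 gene, were above background in no sample and C9 in 1. Of the other terminal components, C7 and C6 averaged 81.4 ± 50.01 and 33.3 ± 11.5 counts.

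Chemokines spread over a wide range of levels. Of 13 CC chemokines, 8 averaged at least 20 counts and 4 were above background in all samples. The lymphoid chemokine Ccl21a was highest at 509.5 ± 307, followed by the monocyte attractant Ccl8 at 349 ± 388, the T-cell attractant Ccl5 at 252 ± 103 and the monocyte attractant Ccl2 at 209.5 ± 339. For Ccl8 and Ccl2 the SD exceeded the mean. Of 6 CXC chemokines, Cxcl9 averaged 126 ± 52.6 and Cxcl10 72.1 ± 104, both inducible by interferon, and the neutrophil attractants Cxcl1, Cxcl2 and Cxcl3 were above background in 2 or 3 samples each.

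Of 22 MAP kinase and small GTPase genes, 19 averaged at least 20 counts and all 19 were above background in every sample, led by Cdc42, Rhoa and Rac1 and by the kinase Mapk3 (ERK1) at 1177 ± 206. All 12 genes of the NF-kB pathway were above background in every sample, with Nfkb1 at 569 ± 98.8 and the inhibitor of interleukin-1 receptor signalling Tollip at 521 ± 52.9. Of 15 toll-like receptors and sensors, 12 were above background in every sample. Tlr8 averaged 304 ± 65.0, Tlr4 186 ± 47.3 and Tlr3 lay below background throughout. Nfe2l2, the NRF2 regulator of the oxidative stress response, averaged 949 ± 184 and its inhibitor Keap1 147 ± 32.4. Of 17 eicosanoid genes, the lipoxygenase Alox15 averaged 420.3 ± 196 and the leukotriene B4 receptor Ltb4r1 364 ± 93.9. Tgfb1 averaged 1663 ± 374 and its receptor Tgfbr1 429 ± 77.9.

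Spread between the 12 samples was measured as the SD of log2(normalized count + 1), on which 1 unit is a factor of 2. The median over 185 genes was 0.37, against a median of 0.12 that the counting error alone would give, and in 142 genes the SD was over 2 times its counting error. The range was 0.10 to 1.87, and 17 genes exceeded 1. Without replicates 2 and 5 the median was 0.30 and 9 genes exceeded 1. In edgeR the biological coefficient of variation, the spread left after counting error, was 38.8% in common and 27.7% at the median gene.

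Myl2, a myosin light chain of muscle, varied most, with an SD of 1.87 and an edgeR biological coefficient of variation of 115%. Its 12 counts stood at 11.04 at the lowest, 50.7 at the median and 811 at the highest, and 10 samples were above background. Replicates 5 and 2 were the top samples, at 811 and 502, and the next was replicate 10 at 165. Its SD was 1.13 without those 2 samples. Mmp3 (stromelysin 1), a matrix metalloproteinase of synovial fibroblasts and chondrocytes, came second with an SD of 1.75. Its counts stood at 39.3 at the lowest, 139 at the median and 1563 at the highest, with replicates 7 and 3 over 1000 (1563 and 1306) and no other sample over 366. Mmp3 kept an SD of 1.84 without replicates 2 and 5. The other metalloproteinase counted, Mmp9, had an SD of 0.52, which became 0.20 without replicates 2 and 5.

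Chemokines and macrophage genes made up much of the variable end. Ccl2 had an SD of 1.69, with counts of 19.3 at the lowest, 109 at the median and 1241 at the highest. It was above background in 11 samples, all but replicate 4, where its count was lowest. It was highest in replicate 5, and the next sample, replicate 7, had 325. Ccl8 (SD 1.31) reached 1161 and 1102 in replicates 3 and 7, the samples in which Mmp3 was high. Ccl7, a monocyte attractant (SD 1.31), was above background in 8 samples and highest in replicate 5, and Ccl11, an eosinophil attractant (SD 1.08), ran from 16.3 to 194. Retnla (SD 1.36) ran from 19.6 to 463 with replicate 3 on top. Arg1, the arginase of alternatively activated macrophages (SD 1.49), was above background in 6 samples and its counting error alone would give 0.60. C3ar1, the receptor for the C3a fragment (SD 1.09), ran from 159 to 2241.

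The remaining genes among the 15 most variable were 3 interferon-inducible genes, 2 complement genes and a heat shock gene. Ifit1, Cxcl10 and Ifit3 had SDs of 1.13, 1.11 and 1.10. Ifit3, which binds foreign RNA together with Ifit1, stood at 110.4 at the lowest, 267 at the median and 1641 at the highest. Cfb and Cfd had SDs of 1.11 and 1.11. Cfd stood at 330.1 at the lowest, 2843 at the median and 5696 at the highest, with replicate 9 the lowest and replicate 7 the highest, and its counting error was 0.04. Hspb1, a small heat shock protein abundant in muscle (SD 1.02), was highest in replicates 2 and 5, at 560.5 and 439, and no other sample exceeded 203. Of the 15 genes, 8 were highest in replicate 5, 3 in replicate 3, 3 in replicate 7 and 1 in replicate 2.

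The 10 genes with the smallest spread included small GTPases, adaptors and transcription factors. Rac1 had the smallest SD, 0.10, and stayed between 1777 and 2292. The adaptor Grb2 had an SD of 0.12, the transcription factor Atf2 0.14 and the ubiquitin ligase Birc2 0.14. Tollip (0.15), the glucocorticoid receptor Nr3c1 (0.16), Cdc42 (0.17), the NF-kB subunit Rela (0.19), the kinase Mknk1 (0.19) and the histone deacetylase Hdac4 (0.19) followed. By list, the median SD was 0.27 in the NF-kB pathway and 0.27 in MAP kinase and GTPase signalling. It was 0.77 in the interferon response and 1.04 in the 8 CC chemokines that passed, beside 0.37 over all 185 genes.

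**Figure D2:**
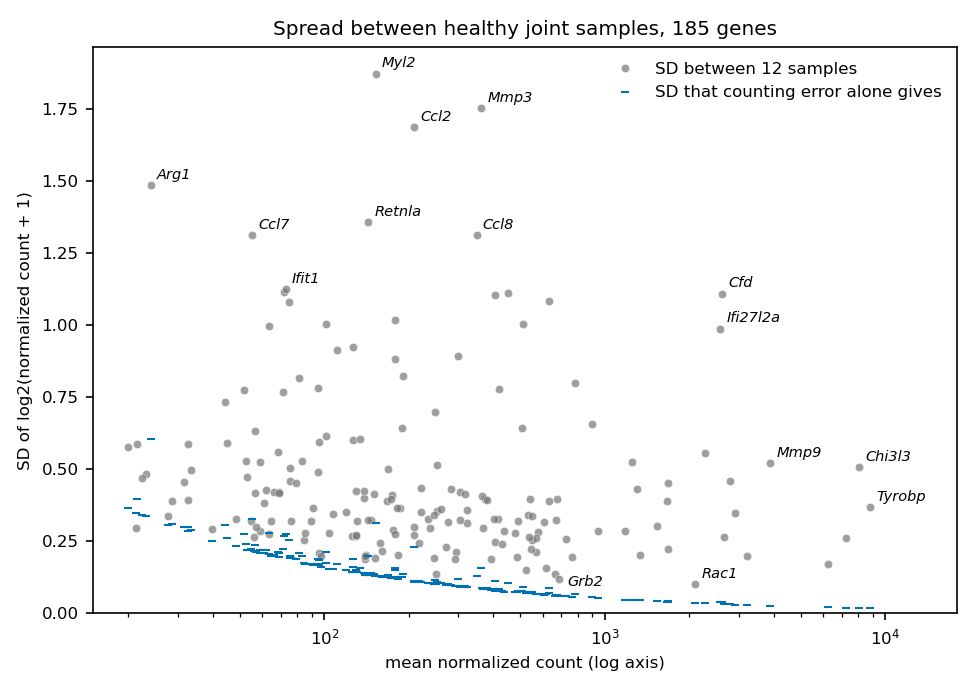
SD of log2(normalized count + 1) between the 12 healthy samples (vertical axis) against the mean normalized count (horizontal log axis) for 185 genes. Grey points are the measured SD and blue dashes the SD that counting error alone gives. Myl2, Mmp3 and Ccl2 lie at the top at middling counts, Cfd lies near 1.11 among the highest counts, and Rac1 lies at 0.10.

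Genes that rise and fall together were sought as pairs. Pearson's r of log2(normalized count + 1) was computed over the 12 samples for all 17020 pairs of the 185 genes. Each r was given a two-sided p by permuting the samples 100000 times, which was adjusted by the Benjamini-Hochberg method over all pairs, and a pair was called at an adjusted p under 0.05. The smallest p that these permutations can give is 1e-05. Of the pairs, 834 were called positive (4.9%) and 116 negative (0.682%), and the smallest called r had a size of 0.724. The median r of all pairs was 0.287 and 71.5% of pairs had a positive r. No pair was called for 13 of the 185 genes.

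These counts moved with the scale and with the samples. With TMM scaling, which sets samples against each other on the endogenous genes themselves, the median r was -0.001 and 250 positive and 72 negative pairs were called, of which 219 positive and 8 negative ones were among the 834 and 116. Without replicates 2 and 5, 146 positive pairs (0.858%) and 1 negative pair (0.00588%) were called over the same genes. Of single samples, leaving out replicate 7 gave 302 positive and 77 negative calls, replicate 2 340 and 8, and replicate 5 420 and 22. All 834 positive and all 116 negative pairs kept their sign without replicates 2 and 5, with a median r of 0.791 and -0.591. Under all of housekeeping, TMM, DESeq2 and total-count scaling and housekeeping scaling without Gapdh, 164 positive pairs over 88 genes were called. In addition 41 of these, over 34 genes, were called without replicates 2 and 5. Under all 5 scalings, 3 negative pairs were called, those of the transcription factor Jun with Mmp9, the adaptor Shc1 and Tgfb1, which are named here after their values were seen.

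The 12 pairs with the largest positive r had r from 0.954 to 0.980. Without the 2 samples farthest from the median of the first gene, r ran from 0.666 to 0.957 in these 12. Of the 12, 7 were still called without replicates 2 and 5. Of single genes, Itgb2 had the most called partners, 29, of which 27 were positive, the kinase Mapk3 28 and Tyrobp 27. The muscle transcription factor Mef2c had 26, of which 14 were negative. Cfb, Hspb1, the interleukin-10 receptor chain Il10rb and Ppp1r12b, a myosin phosphatase subunit of muscle, had 25 each. For Cfb and Il10rb all 25 were positive, whereas 16 of 25 were negative for Ppp1r12b. Cd4 and Tgfb1 had 24 each.

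Genes were then joined into groups by average linkage on r, cut where the average r between groups fell to 0.7. This gave 13 groups of at least 4 genes, which held 132 of the 185 genes. The groups were built from these values and are a description with no test of their own.

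**Figure D3:**
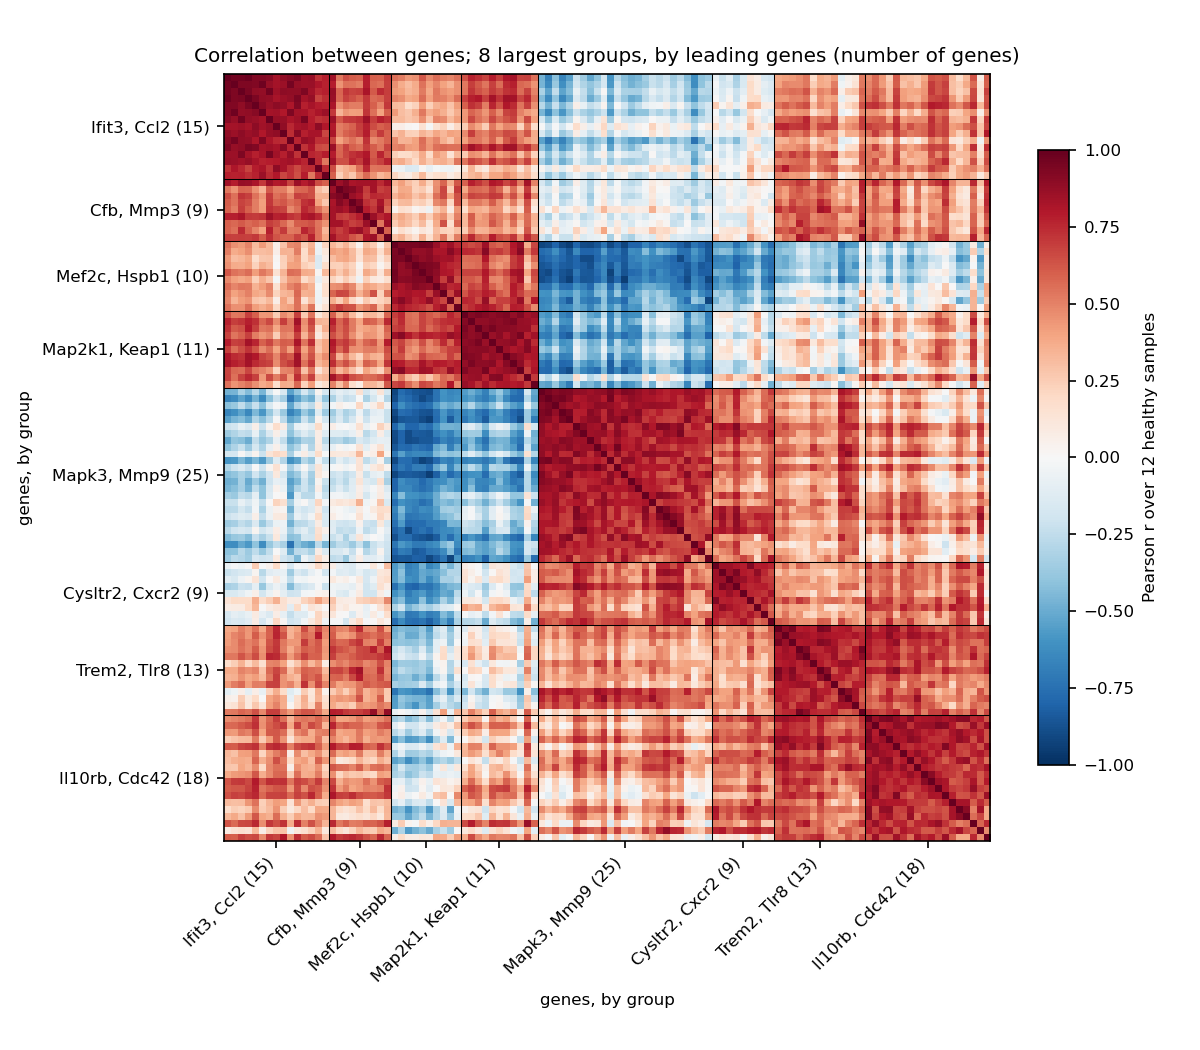
Pearson r over the 12 healthy samples for every pair of genes in the 8 largest groups, from -1 (blue) to 1 (red). Genes are ordered by group on both axes, lines divide the groups, and each label gives 2 leading genes and the number of genes. The Mef2c and Hspb1 group of 10 genes is blue against the Mapk3 and Mmp9 group of 25, and the Ifit3 and Ccl2 group of 15 is red against the Cfb and Mmp3 group of 9.

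The group with the most pairs called under all 5 scalings held 15 genes, of which 12 are on the interferon response list. They were Ifit1, Ifit2, Ifit3, Irf7, Oas1a, Oas2, Oasl1, Ifi44, Mx2, Stat2, Iigp1 and Cxcl10, with the monocyte attractants Ccl2 and Ccl7 and the receptor C3ar1. Ifit3, Ifit2, Ccl2, Ifit1, Irf7 and Oasl1 had the highest mean r to the others. Relative to each gene's mean, the group averaged 1.99 log2 units in replicate 5, 0.95 in replicate 7 and 0.73 in replicate 1. It was lowest in replicate 4 at -0.99, in replicate 12 at -0.86 and in replicate 9 at -0.79. Of its 105 pairs 78 were called, 41 of them under all 5 scalings, and 15 without replicates 2 and 5. The median r of the group was 0.843, and 0.795 without replicates 2 and 5. Of the 15 genes, 11 stayed together in the best-matching group without those samples and 13 with TMM scaling.

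The promoters of the group are shown because interferon-regulated genes are known to carry the interferon-stimulated response element, to which a complex with Stat2 and Irf9 binds. The RefSeq promoter table (GRCm38.p6; 250 bases before to 50 after the gene start) held 10 of the 15 genes. The core of this element was written as GAAA, any 2 bases and GAAA, and was searched on both strands with overlapping matches kept. It was found in 5 of the 10. The same letters were found in 3.99% of all 27025 genes of the table and in 11 of the 137 tested genes that it held (8.03%). The sequences of Ifit3 (chr19:34583279-34583578, plus strand), Ifit1 (chr19:34640639-34640938, plus strand) and Oas1a (chr5:120907476-120907775, minus strand) hold 2 matches each. That of C3ar1 (chr6:122856108-122856407, minus strand), which moved with them, holds none. Each is given 5′ to 3′ on the gene's strand, with the matches in capitals.
Ifit3: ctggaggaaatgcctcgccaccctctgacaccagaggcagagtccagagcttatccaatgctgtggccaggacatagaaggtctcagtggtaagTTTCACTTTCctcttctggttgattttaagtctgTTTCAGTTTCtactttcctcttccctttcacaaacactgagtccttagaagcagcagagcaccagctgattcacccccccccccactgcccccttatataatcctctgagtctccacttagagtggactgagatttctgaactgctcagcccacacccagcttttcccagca
Ifit1: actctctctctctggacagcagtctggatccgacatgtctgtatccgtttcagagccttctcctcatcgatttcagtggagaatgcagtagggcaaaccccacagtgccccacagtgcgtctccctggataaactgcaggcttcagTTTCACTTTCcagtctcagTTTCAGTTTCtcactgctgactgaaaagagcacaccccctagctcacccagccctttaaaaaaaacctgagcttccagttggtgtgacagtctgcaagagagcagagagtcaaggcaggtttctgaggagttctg
Oas1a: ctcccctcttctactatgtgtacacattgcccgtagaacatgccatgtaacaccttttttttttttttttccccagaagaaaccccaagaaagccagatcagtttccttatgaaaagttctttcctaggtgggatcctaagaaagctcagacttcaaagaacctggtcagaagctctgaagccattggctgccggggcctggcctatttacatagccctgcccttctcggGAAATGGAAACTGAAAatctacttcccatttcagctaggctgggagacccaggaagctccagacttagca
C3ar1: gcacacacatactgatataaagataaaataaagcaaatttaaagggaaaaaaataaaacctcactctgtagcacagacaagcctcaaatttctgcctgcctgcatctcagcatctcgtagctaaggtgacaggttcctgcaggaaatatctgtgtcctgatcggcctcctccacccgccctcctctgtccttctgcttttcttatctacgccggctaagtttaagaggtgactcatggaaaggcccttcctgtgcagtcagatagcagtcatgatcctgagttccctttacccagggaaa
The matches began 156 and 122 bases before the gene start in Ifit3, 104 and 85 before it in Ifit1, and 20 and 14 before it in Oas1a, where they overlap. Cxcl10 held 1 match, 213 bases before its start, and Stat2 1, at 222. Ifit2, Irf7, Oasl1 and Ifi44 held none in this window, which says only that these letters are not there.

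The closest pair of the panel was Ifit1 and Ifit3, with r = 0.980 (permutation p = 1e-05, adjusted p = 0.0074), with rho = 0.965 (permutation p = 1e-05). Their r was 0.957 without the samples farthest from the median of Ifit1 (replicates 4 and 5), 0.964 without replicates 2 and 5 and 0.977 with TMM scaling. Ifit1 stood at 16.6 at the lowest, 47.5 at the median and 275 at the highest. Both genes were lowest in replicate 4 and highest in replicate 5. The 16.6 of Ifit1 in replicate 4 lay below the background limit of that sample, 42.8 on the normalized scale. Ifit2 and Oasl1 gave r = 0.972 (permutation p = 2e-05, adjusted p = 0.0077), with rho = 0.895 (permutation p = 0.00033). This r was 0.902 without the samples farthest from the median of Ifit2 (replicates 5 and 12) and 0.923 without replicates 2 and 5. Ifit2 also followed Ifit3 (r = 0.963, adjusted p = 0.0074; rho = 0.951) and Cxcl10 (r = 0.955, adjusted p = 0.0084; rho = 0.937). The pair with Cxcl10 was no longer called without replicates 2 and 5 (r = 0.884, adjusted p = 0.06).

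Ccl2 moved with the interferon genes and with Ccl7. Its 3 closest genes were C3ar1, Ifit3 and Ifit1. With C3ar1 it gave r = 0.966 (permutation p = 1e-05, adjusted p = 0.0074), with rho = 0.979 (permutation p = 1e-05), and r was 0.932 without the samples farthest from the median of Ccl2 (replicates 4 and 5) and 0.959 without replicates 2 and 5. With Ifit3 it gave r = 0.965 (permutation p = 2e-05, adjusted p = 0.0077), with rho = 0.916 (permutation p = 0.00011), and r was 0.961 without replicates 2 and 5. With Ifit1 r was 0.941 (adjusted p = 0.0077) and 0.912 without replicates 2 and 5 (adjusted p = 0.049). Ccl7, its neighbour in the same gene cluster, gave r = 0.933 (adjusted p = 0.0077) with it, and 0.915 without replicates 2 and 5, no longer called (adjusted p = 0.052). With Ccl8 Ccl2 gave r = 0.677, which was not called (adjusted p = 0.11). Of the 28 pairs of CC chemokines 1 was called, that of Ccl2 with Ccl7 (3.57%, near the 4.9% of all pairs). The median r of these 28 pairs was 0.469, beside 0.287 for all pairs.

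On the interferon list of 19 genes, 50 of 171 pairs were called positive (29.2%, against 4.9% of all pairs) and none negative, with a median r of 0.640. The list had 10 called pairs and a median r of 0.688 without replicates 2 and 5. Mx1, an antiviral GTPase, gave r = 0.323 with Ifit3 (adjusted p = 0.53; rho = 0.210). The level of Mx1 stood at 35.3 at the lowest, 97.6 at the median and 176 at the highest, with replicate 5 highest and replicate 3 lowest. Ifi27l2a lay in another group with C4a, Hmgn1 and the interleukin-1 receptor Il1r1, with its highest count in replicate 7 (6264) and its lowest in replicate 9 (556).

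**Figure D4:**
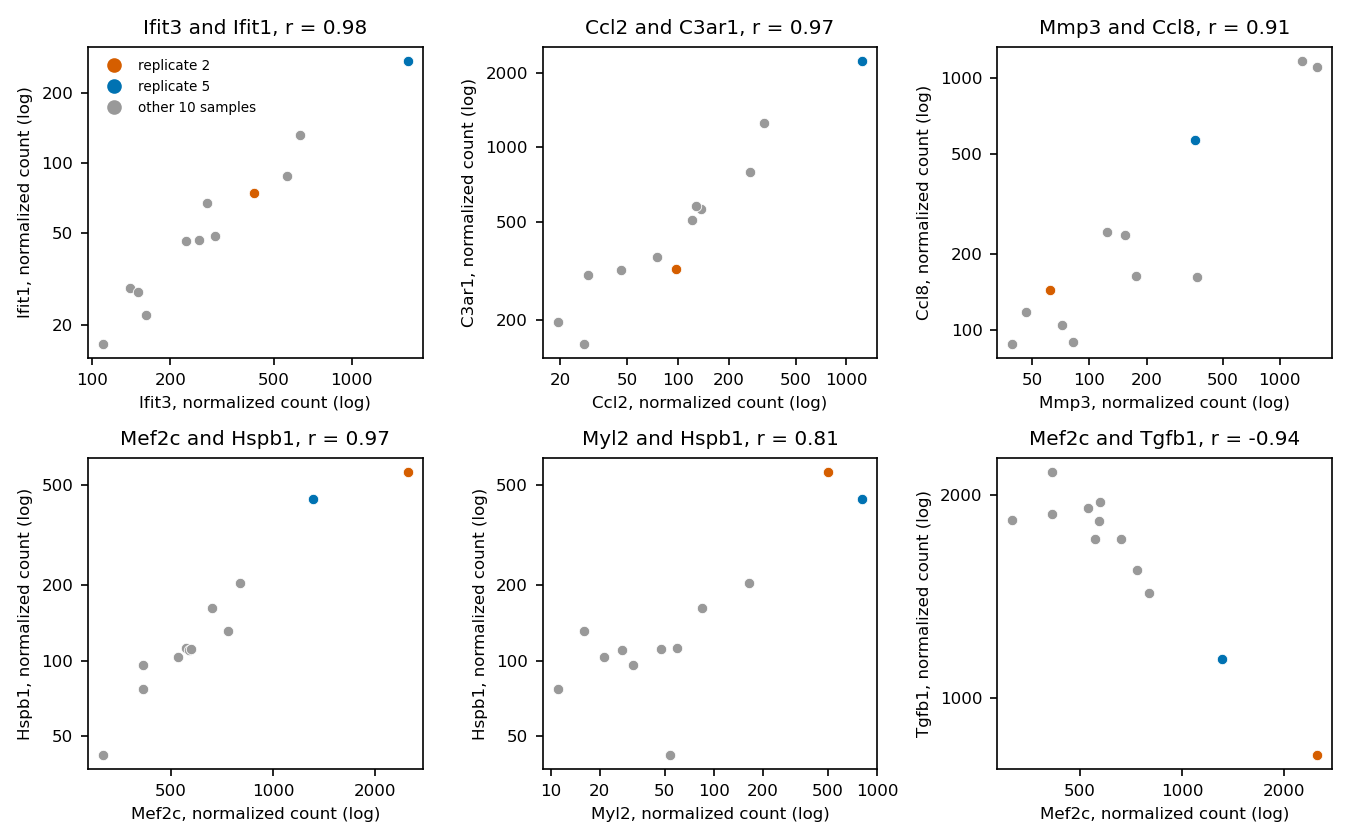
Normalized counts of 6 pairs of genes in the 12 healthy samples (both axes on a log scale; replicate 2 orange, replicate 5 blue, other samples grey), with Pearson r above each. Ifit3 with Ifit1 and Ccl2 with C3ar1 form a line through all samples, the 2 highest samples of Mmp3 and Ccl8 stand away from the rest, and replicates 2 and 5 lie at the ends of the pairs with Mef2c or Myl2.

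A group of 9 genes brought Mmp3 together with complement and macrophage genes. It held Cfb, C1s, C1ra, Ccl8, Mmp3, the leukotriene receptor Cysltr1, the transcription factor Tcf4, Arg1 and Tgfbr1. The group averaged 1.56 log2 units in replicate 7 and 1.07 in replicate 3, and was lowest in replicate 9 at -1.05. Of its 36 pairs, 20 were called, and 6 without replicates 2 and 5. Its median r was 0.814, and 0.809 without these samples. C1ra and C1s gave r = 0.944 (permutation p = 2e-05, adjusted p = 0.0077; rho = 0.909), and 0.950 without replicates 2 and 5.

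The 3 genes most like Mmp3 were Ccl8, Arg1 and C1s. With Ccl8, Mmp3 gave r = 0.914 (permutation p = 9e-05, adjusted p = 0.013), with rho = 0.832 (permutation p = 0.0015), and its r was 0.741 without the samples farthest from the median of Mmp3 (replicates 3 and 7). It was 0.922 without replicates 2 and 5 (adjusted p = 0.063, no longer called). With Arg1 it gave r = 0.867 (permutation p = 0.00022, adjusted p = 0.018), with rho = 0.776 (permutation p = 0.0044), and 0.748 without replicates 3 and 7. It was 0.852 without replicates 2 and 5 (adjusted p = 0.072, no longer called). With C1s r was 0.852 (adjusted p = 0.028, rho = 0.706). Without replicates 3 and 7 r was 0.593 (permutation p = 0.071), so its size depended in part on those samples. It was 0.883 without replicates 2 and 5 and no longer called (adjusted p = 0.07). Mmp3 and Mmp9 gave no call over the 12 samples (r = -0.054, permutation p = 0.88, rho = -0.147, permutation p = 0.65). Their r was -0.362 without replicates 2 and 5, also not called (adjusted p = 0.59). Mmp3 gave r = 0.692 with Ccl2 (adjusted p = 0.098) and 0.586 with Ifit3 (adjusted p = 0.18), neither of which was called.

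**Figure D5:**
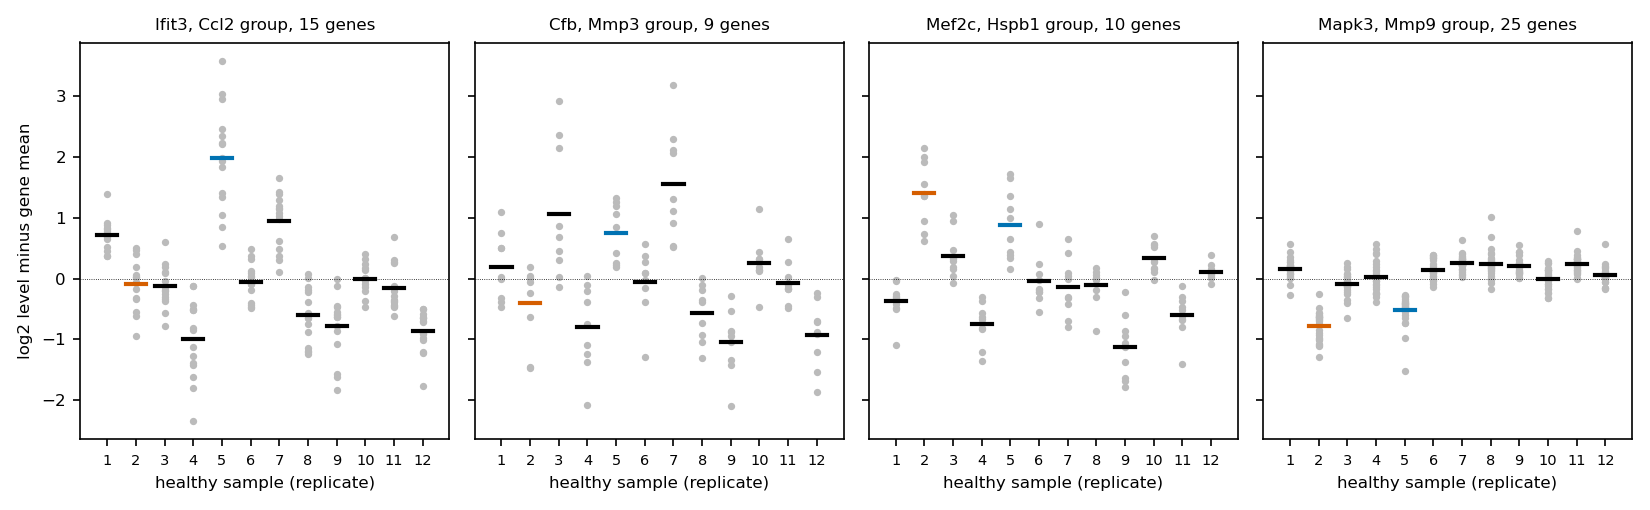
Log2 level minus the gene's mean (vertical axis) in each of the 12 healthy samples (horizontal axis) for 4 groups; grey points are genes and bars the mean of the group, orange in replicate 2 and blue in replicate 5. The Ifit3 and Ccl2 group peaks in replicate 5 at 1.99, the Cfb and Mmp3 group in replicate 7 at 1.56, the Mef2c and Hspb1 group in replicate 2 at 1.41, and the Mapk3 and Mmp9 group is lowest in replicate 2 at -0.77.

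A group of 10 genes was led by Mef2c, Map2k6, Mef2d, Hspb2, Hspb1 and Ppp1r12b, joined by Ccl11, Ccl21a, the kinase Prkca and Tgfb3. It held genes of the muscle list, among them Mef2c, Hspb2 and Ppp1r12b, but Myl2 and Fxyd2 of that list lay outside it. Mef2c and Mef2d are transcription factors of muscle, and Hspb2 is a small heat shock protein of muscle. The group averaged 1.41 log2 units in replicate 2 and 0.88 in replicate 5, and was lowest in replicate 9 at -1.13. Of its 45 pairs, 33 were called, 30 of them under all 5 scalings, and 5 without replicates 2 and 5. Its median r was 0.861, and 0.793 without these samples, where 9 of the 10 genes stayed together. Hspb1 and Mef2c gave r = 0.967 (permutation p = 1e-05, adjusted p = 0.0074), with rho = 0.965 (permutation p = 1e-05), and 0.940 without replicates 2 and 5, which were also the samples farthest from the median. Mef2c stood at 317 at the lowest, 572 at the median and 2492 at the highest. Mef2c and Ppp1r12b gave r = 0.960 (adjusted p = 0.0074; rho = 0.965), and 0.874 without replicates 2 and 5 (adjusted p = 0.058, no longer called).

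Myl2 itself lay outside this group. Its closest genes were Ppp1r12b (r = 0.835, permutation p = 0.0011, adjusted p = 0.034; rho = 0.671), Hspb1 (r = 0.813, adjusted p = 0.045; rho = 0.713) and Mef2c (r = 0.774, adjusted p = 0.06, not called). Without replicates 2 and 5 these were 0.555, 0.404 and 0.332, and none was called, over 10 samples in place of 12. The size of these relations of Myl2 thus depended in part on those 2 samples. The part of muscle RNA in these relations was not tested. On the list of 7 muscle markers, 7 of 21 pairs were called (33.3%, beside 4.9% of all pairs) and the median r was 0.349. Of the 21, 1 was called without replicates 2 and 5, with a median r of 0.222. Fxyd2, a subunit that regulates the sodium pump, was lowest in replicate 2 (38.3) and highest in replicate 7 (332).

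The slope of every other gene on log2 Myl2 was tested in edgeR by the quasi-likelihood test, with the housekeeping scale as offset. Of 184 genes, 7 were called higher (3.8%) and 7 lower (3.8%) with more Myl2. Per doubling of Myl2, Hspb1 was higher by 0.45 log2 units (edgeR adjusted p = 0.0084), Ppp1r12b by 0.45 (0.0091), Mef2c by 0.34 (0.014) and Cxcl10 by 0.46 (0.031). Map2k4, Hspb2 and Jun were the other genes called higher. The 7 called lower were Shc1 (-0.14, edgeR adjusted p = 0.014), Tgfb1 (-0.17), Kng1 (-0.23), Mmp9 (-0.23, 0.026), Ptgs1 (-0.16), Mapk3 (-0.12) and the prostacyclin receptor Ptgir (-0.14). Of these, Kng1 is 1 of the 9 liver-made genes above and was not above background in all 12 samples. Without replicates 2 and 5 the quasi-likelihood test called none in either direction, with 8 genes at an unadjusted p under 0.05. The slope of Cxcl10 was then -0.02 and that of Hspb1 0.24. Without replicate 2 alone, or without replicate 5 alone, 3 genes were called higher and none lower. With TMM scaling 19 genes were called higher, among them the same 7, and 4 lower, 3 of them among the 7. Set against the other housekeeping genes, Gapdh had r = 0.759 with Myl2 and Tubb5 r = -0.812. This r was -0.017 for Cltc, -0.205 for Gusb, -0.313 for Hprt and 0.028 for Pgk1. Without Gapdh in the scale 20 genes were called higher, among them the same 7, and 5 lower, all among the 7. The part of the scale in these slopes was not tested.

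The 8 most negative called pairs had r from -0.944 to -0.915 and joined Mef2c, Ppp1r12b, Hspb1, Myl2 or Prkca to Tgfb1, the death-receptor adaptor Tradd, Shc1, Mapk3 or the costimulator Cd86. Mef2c and Tgfb1 gave r = -0.944 (permutation p = 6e-05, adjusted p = 0.011), with rho = -0.811 (permutation p = 0.0021). Their r was -0.709 without replicates 2 and 5 (permutation p = 0.022, adjusted p = 0.19) and -0.747 with TMM scaling. Tgfb1 was lowest in replicates 2 and 5, at 824 and 1144, where Mef2c was highest. Ppp1r12b gave r = -0.938 with Tradd and -0.934 with Tgfb1 (adjusted p = 0.0077 and 0.008). Prkca and Cd86 gave r = -0.918 (adjusted p = 0.014; rho = -0.930). None of the 8 was called without replicates 2 and 5, where r ran from -0.818 to -0.594, and with TMM scaling r ran from -0.747 to -0.550.

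The largest group, of 25 genes, held the leukocyte genes Tyrobp, Itgb2, Mmp9, Cxcr4, Ccr1, Cd4, Cd86 and Il1b with Mapk3, Ptgs1, the kinase Map3k5 and Tgfb1. Mapk3, Ptgs1, Map3k5, Mmp9, Tgfb1 and Itgb2 had the highest mean r to the others. The group was lowest in replicate 2 (-0.77 log2 units) and replicate 5 (-0.52), and between -0.08 and 0.25 in the other 10 samples. Its median r was 0.798 over 12 samples and 0.342 without replicates 2 and 5. Of its 300 pairs 137 were called over 12 samples and none without these 2, while 30 were called under all 5 scalings. Mmp9 and Ptgs1 gave r = 0.960 (permutation p = 0.00044, adjusted p = 0.023), with rho = 0.818 (permutation p = 0.0021), and 0.666 without replicates 2 and 5 (adjusted p = 0.23). Ccr7 and Il1b gave r = 0.954 (adjusted p = 0.015) and 0.696 without these samples (adjusted p = 0.2). Ptgs1 and Shc1 gave 0.954 (adjusted p = 0.016) and 0.695 (adjusted p = 0.19). Myl2 and Tyrobp gave r = -0.645 over all samples and 0.078 without replicates 2 and 5, neither called (adjusted p = 0.14 and 0.93).

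On the list of 8 granulocyte and marrow markers, which shares Mmp9, Itgb2, Cxcr4 and Alox15 with this group, 8 of 28 pairs were called and the median r was 0.690, or 0.421 without replicates 2 and 5. Of the 28 pairs, none was called without these samples. The share called was 28.6%, beside 4.9% of all pairs. Cxcr2, the leukotriene-forming lipoxygenase Alox5, the leukotriene receptor Cysltr2, Mknk1, the survival gene Bcl2l1, Il1rap, Chi3l3, Atf2 and the phospholipase Pla2g4a formed a group of 9, with a median r of 0.783 and of 0.712 without those samples. Of its 36 pairs, 14 were called, 2 of them under all 5 scalings, and none without replicates 2 and 5. With TMM scaling 2 of the 9 genes, Alox5 and Cxcr2, stayed together.

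The tightest group by median r (0.875) was of 11 genes, among them Map2k1, Keap1, Map3k7, Cd55, Nr3c1, Mapkapk2, Jun, Map2k4, C2 and Mapk14. Map2k1 is a kinase of the ERK cascade, Map3k7, Map2k4 and Mapk14 belong to the stress-kinase branch, and Cd55 protects cells from complement. It was highest in replicate 2 at 0.56 log2 units and lowest at -0.67 in replicate 4, the sample with the fewest counts. Of its 55 pairs, 49 were called, 26 under all 5 scalings and 20 without replicates 2 and 5. Jun and Mapkapk2 also moved with the housekeeping mean of a sample, taken here as its input. The same mean is the scale of the counts, and Gapdh, high in replicates 2 and 5, is part of it. The slopes on this mean were not repeated without Gapdh. In the edgeR quasi-likelihood test of the slope on the log2 housekeeping mean, 4 of 185 genes (2.16%) were called higher with more input. They included Myl2 (2.69 log2 units per doubling), Jun (1.13) and Mapkapk2 (0.49), each with an edgeR adjusted p of 0.038. None was called lower (0%), by this test or by the Wald test of DESeq2, with 32 genes in all at an unadjusted p under 0.05 in edgeR and 38 in DESeq2. Under TMM scaling the quasi-likelihood test called none, with 46 genes at an unadjusted p under 0.05 and slopes of 1.14 for Jun and 0.49 for Mapkapk2. It also called none when any 1 of replicates 1, 2, 3, 4, 5, 8, 10 and 11 was left out, with 17 to 37 genes at an unadjusted p under 0.05, and 3 without replicate 6, 1 without replicate 7 and 6 without replicate 9. Ifit3 had a slope of 1.24 that was not called (edgeR adjusted p = 0.17). The part of input in the covariation of these groups was not tested beyond the partial correlations given among the alternatives.

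Of the pairs within the list of 14 macrophage and monocyte markers, 9 of 91 were called (9.89%, beside 4.9% of all pairs), and 1 without replicates 2 and 5, with r from -0.749 to 0.941. Markers of this list also lay in 2 further groups. One held 13 genes, led by Trem2, a lipid receptor of macrophages, Tlr8, Tlr7, Hif1a, Ccl5 and H2-Eb1, with C1qa, Tlr2, Fos, Rela, Ccl19, Stat3 and Csf1. Its median r was 0.792, and 0.731 without replicates 2 and 5. Of its 78 pairs 36 were called, but 3 under all 5 scalings and 3 without replicates 2 and 5, and 4 of the 13 genes stayed together with TMM scaling. Csf1, the macrophage growth factor, and Hif1a, a transcription factor that responds to low oxygen, gave r = 0.957 (permutation p = 2e-05, adjusted p = 0.0077), with rho = 0.944 (permutation p = 2e-05), and 0.959 without replicates 2 and 5. The other held 18 genes, led by Il10rb, Cdc42, Myd88, Gnb1, C1qb and Nfe2l2, with Ccr2, Tlr4, Ly96 and Irf5 among the rest. Its median r was 0.780, but 1 of its 153 pairs was called under all 5 scalings and 2 with TMM scaling, against 77 with the housekeeping scale. Without replicates 2 and 5 its median r was 0.783 and 12 of its pairs were called. C1qa and C1qb, chains of the same protein, lay in different groups although they gave r = 0.925 with each other (adjusted p = 0.0074; rho = 0.937). Tlr7 and Tlr8 gave r = 0.862 (adjusted p = 0.025) and 0.743 without replicates 2 and 5 (adjusted p = 0.16). Tyrobp and Trem2, which signals through it, gave r = 0.603, which was not called (adjusted p = 0.18, rho = 0.336), and 0.393 without replicates 2 and 5.

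Small groups of 4 or 5 genes lay beside these. Rhoa, Ltb, Kng1, Tbxa2r and Traf2 formed a group of 5, with a median r of 0.817 and of 0.663 without replicates 2 and 5. Kng1 of this group was not above background in all 12 samples. Il6ra, Ltb4r1, Plcb1 and Max formed a group of 4 with a median r of 0.804 and of 0.849 without replicates 2 and 5, where all 4 stayed together. None of these 4 stayed together with TMM, DESeq2 or total-count scaling, and 1 of their 6 pairs was called under all 5 scalings. C4a, Hmgn1, Ifi27l2a and Il1r1 had medians of 0.817 and 0.852.

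Cfd and Retnla lay outside all groups. The genes most like Cfd were Rac1, Smad7 and Ptgfr. With Rac1 it gave r = 0.856 (permutation p = 0.0007, adjusted p = 0.028), with rho = 0.706 (permutation p = 0.012), but 0.547 without replicates 1 and 9 and 0.240 with TMM scaling. With Smad7, an inhibitor of TGF-beta signalling, r was 0.811 (adjusted p = 0.049; rho = 0.517), and 0.312 without the same samples. With the prostaglandin receptor Ptgfr r was 0.782 and not called (adjusted p = 0.067). The size of the relations of Cfd with Rac1 and Smad7 thus depended in part on replicates 1 and 9. The genes most like Retnla were C7 (r = 0.782, adjusted p = 0.053; rho = 0.622), Ccl11 (r = 0.725, adjusted p = 0.081) and Mef2d (r = 0.717, adjusted p = 0.076), and none was called.

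Within the other lists fixed by function, the share of pairs called positive ran from 0% to 20%, beside 4.9% of all pairs. In the NF-kB list 3 of 66 pairs were called (4.55%, near the 4.9% of all pairs), and none was called positive without replicates 2 and 5. Nfkb1 and Rela gave r = 0.801 (adjusted p = 0.044, rho = 0.476) and 0.537 without replicates 2 and 5 (adjusted p = 0.37). In MAP kinase and GTPase signalling 23 of 171 pairs were called positive (13.5%) and 5 negative, beside 4.9% and 0.682% of all pairs. Without replicates 2 and 5, 4 pairs of this list were called positive. The median r of this list was 0.164, beside 0.287 for all pairs. Without Gapdh in the scale the order turned, at 0.406 for the list and 0.253 for all pairs. Among toll-like receptors and sensors 10 of 78 pairs were called (12.8%), and among 14 eicosanoid genes 8 of 91 (8.79%). Among 10 interleukin-1, TNF and interleukin-6 genes 3 of 45 were called (6.67%). Without replicates 2 and 5, none, none and 1 were called in these lists, in the same order. No pair was called among the 7 immediate early and stress genes, the 4 NRF2 and small MAF genes or the 3 CXC chemokines. The 6 classical complement genes had the highest median r of any list, 0.699, with 3 of 15 pairs called over 12 samples (20%). Without replicates 2 and 5 their median r was 0.829 and 4 pairs were called. Il1b gave r = 0.604 with its antagonist Il1rn, which was not called (adjusted p = 0.12, rho = 0.643), and 0.307 without replicates 2 and 5.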

How the data were processed

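The deposited values are whole-number barcode counts per probe, control probes included, made by the authors on the nCounter from column-purified total RNA, per the labels' protocols. The software, any background subtraction and any batch are not given in the sources used here. Of 268 probes, 248 are endogenous, 6 housekeeping, 6 positive and 8 negative controls. The 12 healthy untreated samples of 48 were used, and loaded joints were not analysed here. Of the gene names, 242 are current RefSeq symbols and 6 were matched as synonyms.

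Each count was divided by the sample's geometric mean of the housekeeping genes (Tubb5, Pgk1, Hprt, Gusb, Gapdh and Cltc) and multiplied by the mean of these over the 12 samples. Genes with a mean of at least 20 normalized counts (185) entered spread, pairs and slopes on the scale of log2(normalized count + 1). The SD from counting alone was derived from the raw counts. Pairs were tested by permutation (100000, two-sided, Benjamini-Hochberg over 17020 pairs) in Python 3.11.15 with numpy 2.4.6, scipy 1.17.1 and pandas 2.3.3. Slopes were tested with edgeR 4.0.16 (quasi-likelihood) in R 4.3.3, with the Wald test of DESeq2 1.42.0 as an alternative. Both kinds of test were tried on simulated data. For pairs, genes outside a linked set were simulated as independent, and for slopes the dispersion was capped. The real samples differ in both, so these trials are no check on the calls given here. Groups came from average linkage on 1 minus r, cut at 0.3.

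Named were the 15 highest genes, the 15 most and 10 least variable, leading members of each list and group, the 12 most positive and 8 most negative pairs, the 10 genes with most partners, called slopes, and Mmp3, Mmp9, Il1b, Tnf, Il6, Nos2, Ptgs2, Myl2, Cfd, Retnla, Ccl2 and Ifit3 with the 3 genes most like some of them. Further members of the groups and lists, and some pairs between them, were named after their values were seen. The members, lists and named genes were chosen with earlier results of these data known. Alternatives without replicates 2 and 5, partial r given Myl2, and groups and Myl2 slopes scaled without Gapdh were added after seeing the data. Some genes of the panel are not reported here.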

Additional observations from a re-analysis of the deposited data

How the results depend on the processing

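The count of 834 positive and 116 negative pairs depended on the scale, on single housekeeping genes and on the samples. Positive and negative calls were 250 and 72 with TMM scaling, 239 and 66 with DESeq2 size factors and 256 and 66 with the total count. Positive calls were 1686 without Cltc, 2190 without Gusb, 461 without Pgk1 and 1385 without Tubb5 in the scale. Negative calls were 55 without Gapdh, 201 without Hprt, 71 without Pgk1 and 256 without Tubb5. Without a filter on low counts 446 positive pairs were called. By Spearman's rho 226 positive and 11 negative pairs were called. Given input 1414 positive pairs were called by partial r, and given Myl2 38 negative ones. Without replicates 2 and 5 there were 146 and 1, over 10 samples in place of 12. Leaving out 1 sample at a time gave 302 to 794 positive and 8 to 117 negative pairs. Genes with an SD over 1 (17) numbered 10 with a pseudocount of 10 and 9 without replicates 2 and 5, and 9 to 19 with 1 sample left out. Genes in groups (132) numbered 82 with TMM or DESeq2 scaling and 85 with the total count. Slopes on input (4 higher) gave 0 with TMM, 0 with DESeq2 size factors, 0 with the total count, 0 without a filter and 0 without replicates 2 and 5 by edgeR (46, 48, 49, 40 and 26 genes at an unadjusted p under 0.05), 11 by the DESeq2 Wald test, and 0 to 6 with 1 sample left out. Slopes on Myl2 (7 higher, 7 lower) gave 19 higher and 4 lower with TMM or DESeq2 size factors, 21 and 3 with the total count, 20 higher without Gapdh, 17 lower by the Wald test and 0 of either without replicates 2 and 5 (8 at an unadjusted p under 0.05). With 1 sample left out they gave 3 to 18 higher and 0 to 10 lower. The slope of Cxcl10 on Myl2 turned to -0.019 without replicates 2 and 5. Beyond the changes in the number of samples or genes, the cause was not tested. Of the r values of named pairs under all alternatives, 801 kept their sign and side of the threshold, 16 newly passed it and 133 no longer did. The 15 highest genes shared 14 or 15 with the main order under every alternative run, and the 15 most variable 11 to 15. Low counts limit the spread of genes near the background limit of 9.67 to 22.9 raw counts, or 8.31 to 42.8 on the normalized scale. No paired analysis was possible because 1 group alone was analysed.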

Other observations

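Replicate 7 was the sample in which the most genes had their highest value. Of 185 genes, 65 were highest in it and 0 were lowest in it. These numbers of genes and the sums below hold on the housekeeping scale and were not repeated with another scale. Replicate 7 held 191954 counts at a housekeeping mean of 1502, and replicate 2 held 155284 at 1823. The part of the scale in these differences between samples was not tested. The classical and lectin complement genes summed to 10334 counts in replicate 7, against 4955 at the median sample. The alternative and terminal complement genes summed to 13470 against 6093. These sums do not weigh the genes equally. In replicate 7, C1qb held 4323 of the first sum and C3 4917 of the second. The toll-like receptors and sensors summed to 2876 against 2170 at the median, and the TGF-beta and growth factor genes to 3880 against 2956. By contrast, replicate 2 held the lowest value of 65 genes and the highest of 21, and replicate 4, with the fewest counts, the lowest of 38 genes and the highest of 7. Replicate 9 was lowest for 31 genes, and Cfd, the sole adipocyte marker looked at, had its lowest count there, at 330.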
